A study of Bos taurus with 8 samples.

Results

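T cells, B cells and natural killer (NK) cells are the lymphocytes, the white blood cells of specific immunity. T cells carry a receptor whose signal passes through the CD3 chains to the kinases LCK and ZAP70, and B cells carry an antibody receptor that signals through CD79A, CD79B and kinases such as BLK. Cytotoxic T cells and NK cells kill target cells with granzymes and perforin. The fetal liver is a site of blood cell formation, and its RNA includes that of lymphocytes, which are outnumbered there by hepatocytes and blood precursors.

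The 31 lymphocyte genes described here were taken by name, as markers of T, B and NK cells. They comprised 18 T cell genes, 6 B cell genes, 5 cytotoxic and NK cell genes, and CD48 and IL2RG, which several lymphocyte types share. Of these, 27 were matched to a probe by its RefSeq accession, among 12603 matched genes in all. CD6, CD22, CD79B and PAX5 were not matched and were not analysed here. The 27 genes had 52 probes, of which 40 were detected, meaning well above background on 4 or more arrays. A detected probe was found for 23 members, 14 of the T cell list, 2 of the B cell list, all 5 cytotoxic and NK genes and both shared genes. Of these 23, 22 were represented by a probe well above background on all 8 arrays, and CD5 by a probe well above it on 2 arrays of each group, so no member passed the filter through 1 group alone.

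The livers came from male fetuses of Japanese Black dams, all by the same sire, taken at 8.5 months after conception. Dams of the low nutrition (LN) group received 60% of their nutritional requirement through gestation and those of the high nutrition (HN) group 120%, and no group was fed at the full requirement. Each group had 4 fetuses, the lightest of the LN group (L5, L6, L8 and L9) and the heaviest of the HN group (L1, L2, L3 and L10), so nutrition and fetal weight were selected together. The sample labels give 1 fetus to each array, whereas the series design text speaks of pooled RNA. If RNA was pooled, the spread given here would be technical.

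Every LN array was on slide 1, in scan 1, and every HN array on slide 2, in scan 2. Slide, scan and nutrition therefore cannot be told apart. Between 32635 and 34369 of 43803 spots per array were well above background, and 0 were saturated. Of 9 detected hepatocyte markers, 7 had a higher mean in LN, and their median difference was 0.020.

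Values are log2 of the background-subtracted spot intensity after quantile normalization, a difference is the LN mean minus the HN mean on that scale, and each gene is given by its brightest detected probe. Signals of different probes are not comparable, so levels are set only against the same probe in other fetuses. In whole liver, fewer cells of a type and less RNA per cell cannot be told apart.

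Lymphocyte genes were on the low side in LN livers by small amounts. Of the 23 detected members, 21 had a lower mean in LN and 2 (LAT and GZMB) a higher mean. Among all 10860 detected genes, 48.4% had a lower mean in LN. The median difference of the members was -0.14, against 0.0075 over all detected genes. It was -0.058 without HN L3, -0.26 without HN L2 and -0.26 with each array scaled to its 75th percentile. By limma with Benjamini-Hochberg adjustment, 0 members were called at an adjusted p of at most 0.05, the lowest being 0.760, and so were 0 of all detected genes (0%) and 0 of 33439 detected probes (0%). At an unadjusted limma p of at most 0.05, 3 members were called (ZAP70, CD247 and BLK), all of them lower in LN. The background of this call was 6.05% of detected genes in either direction, 2.75% lower in LN, and 6.32% of detected probes. CD247 was the only detected member whose groups did not overlap, against 4.14% of detected genes in either direction and 1.56% with all LN fetuses below all HN fetuses. Scaling each array to its 75th percentile in place of quantile normalization gave 6 members at that unadjusted p. ZAP70 alone was called at it with array position as a block, and also without LN L8, HN L3 or HN L10. The 75th percentile scaling also changed the share lower in LN among all genes called at it from 45.5% to 64.6%.

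**Figure D1:**
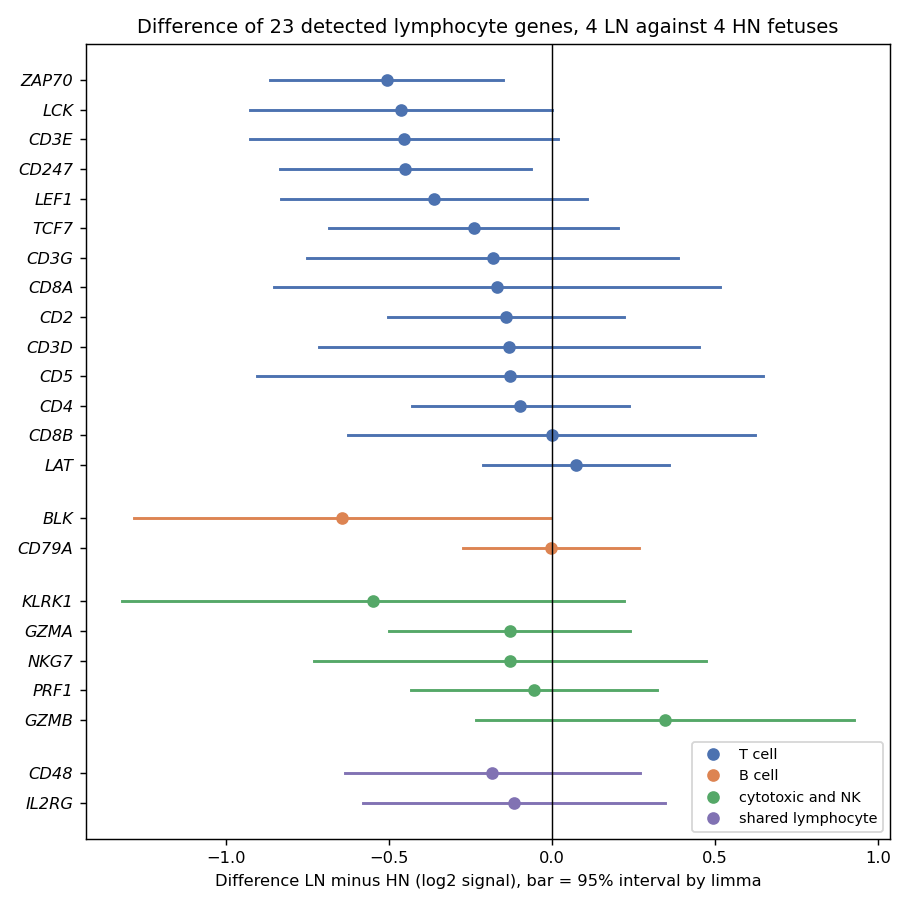
Difference in mean log2 signal, LN minus HN, on the horizontal axis for the 23 detected lymphocyte genes, grouped by list. Bars are 95% limma intervals with 4 fetuses per group. Of the 23 points, 21 lie below 0, and the intervals of ZAP70, CD247 and BLK do not reach 0.

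The CD3 complex carries the signal of the T cell receptor, and CD247 is its zeta chain. The log2 signal of CD247 (NM_174012) was 9.33, 9.21, 8.92 and 9.30 in LN fetuses L5, L6, L8 and L9, and 9.42, 9.37, 9.95 and 9.82 in HN fetuses L1, L2, L3 and L10. All LN fetuses lay below all HN fetuses, although LN L5 and HN L2 were only slightly apart. The means were 9.19 ± 0.18 and 9.64 ± 0.29 (SD, n = 4 each), a difference of -0.45 (standard error, SE, 0.17, exact permutation p = 0.0286, adjusted p = 0.765 by limma). This exact p is the smallest that 70 divisions of 8 fetuses into 4 and 4 allow, and it is not adjusted for the number of genes. The other probe of CD247 differed by -0.38 and its groups overlapped.

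CD3E encodes the epsilon chain of the same complex. Its log2 signal (NM_174011) was 8.32, 8.02, 7.79 and 8.37 in LN (L5, L6, L8, L9) and 8.44, 8.14, 8.82 and 8.92 in HN (L1, L2, L3, L10). HN L2 lay among the LN fetuses, and the other HN fetuses lay above all of them. The difference was -0.45 (SE 0.21, exact permutation p = 0.114, adjusted p = 0.785 by limma), and the second CD3E probe differed by -0.25.

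The delta and gamma chains did not separate the groups. CD3D (NM_001034033) was at 11.29, 12.12, 11.27 and 12.13 in LN and at 11.72, 11.64, 12.30 and 11.68 in HN, in the same order of fetuses. The LN fetuses formed a low and a high pair around most of the HN fetuses. The difference was -0.13 (95% interval -0.71 to 0.45, exact permutation p = 0.743), and it turned to 0.022 without HN L3.
For CD3G (NM_001040472), the LN values were 5.66, 5.17, 4.81 and 5.51 and the HN values 5.46, 4.91, 5.87 and 5.63. The ranges overlapped almost wholly. The difference was -0.18 (95% interval -0.75 to 0.39, exact permutation p = 0.543), and the dimmest of its 3 probes pointed the other way at 0.23.

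LCK and ZAP70 are the tyrosine kinases that act first after the T cell receptor is engaged. ZAP70 (NM_001193017), which binds the phosphorylated CD3 and zeta chains, was at 6.29, 5.90, 5.73 and 5.97 in LN L5, L6, L8 and L9 and at 6.25, 6.70, 6.56 and 6.39 in HN L1, L2, L3 and L10. Only LN L5 and HN L1 were out of order, by a small margin. The difference was -0.51 (95% interval -0.86 to -0.15, SE 0.16, exact permutation p = 0.0571, adjusted p = 0.760 by limma), which was the largest in size of the 14 detected T cell members. With normexp background correction it was -0.28, smaller in size than that of LCK at -0.42. ZAP70 had 1 probe, so no second probe could be set beside it.

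LCK (NM_001034334), which phosphorylates the CD3 chains, was measured by 5 detected probes. The brightest gave 8.64, 8.21, 7.82 and 8.16 in LN and 8.59, 8.31, 8.87 and 8.91 in HN. LN L5 lay within the HN range and the other LN fetuses below it. The difference was -0.46 (SE 0.20, exact permutation p = 0.0857, adjusted p = 0.785 by limma). All 5 probes were lower in LN, by differences of -0.46 to -0.27. On the dimmest of them the groups did not overlap (LN at or below 3.81, HN at or above 3.97). The 5 probes read the same RNA samples and are not replicates of the comparison.

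LAT, the adaptor that ZAP70 phosphorylates, was the only T cell member with a higher mean in LN, with a difference of 0.075 (95% interval -0.21 to 0.36), and of its 3 probes 1 pointed the other way at -0.28.

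The coreceptors CD4 and CD8 bind the molecules that present antigen and mark helper and cytotoxic T cells. CD4 (NM_001103225) was at 12.83, 13.32, 13.00 and 13.30 in LN (L5, L6, L8, L9) and at 13.15, 13.05, 13.32 and 13.31 in HN (L1, L2, L3, L10). The highest fetuses of both groups were level, and the difference was -0.096 (95% interval -0.43 to 0.24, exact permutation p = 0.429). Only 1 of the 4 CD4 probes was detected, on all 8 arrays, and the other 3 were well above background on 0 arrays. Macrophages can also express CD4, so this gene is less particular to T cells than the CD3 chains.

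CD8A (NM_174015) was at 9.66, 9.12, 8.83 and 8.22 in LN and at 9.18, 8.88, 9.59 and 8.85 in HN. LN fetuses were both the highest and the lowest, and the difference was -0.17 (95% interval -0.85 to 0.51, exact permutation p = 0.657). CD8B (NM_001105344), its partner chain, was at 5.19, 4.88, 4.70 and 4.21 in LN and at 4.52, 4.37, 5.43 and 4.67 in HN. Both chains were lowest in LN L9, and for CD8B the group means were nearly equal (difference -0.00037, 95% interval -0.62 to 0.62). These intervals include differences as large as those of LCK and ZAP70.

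**Figure D2:**
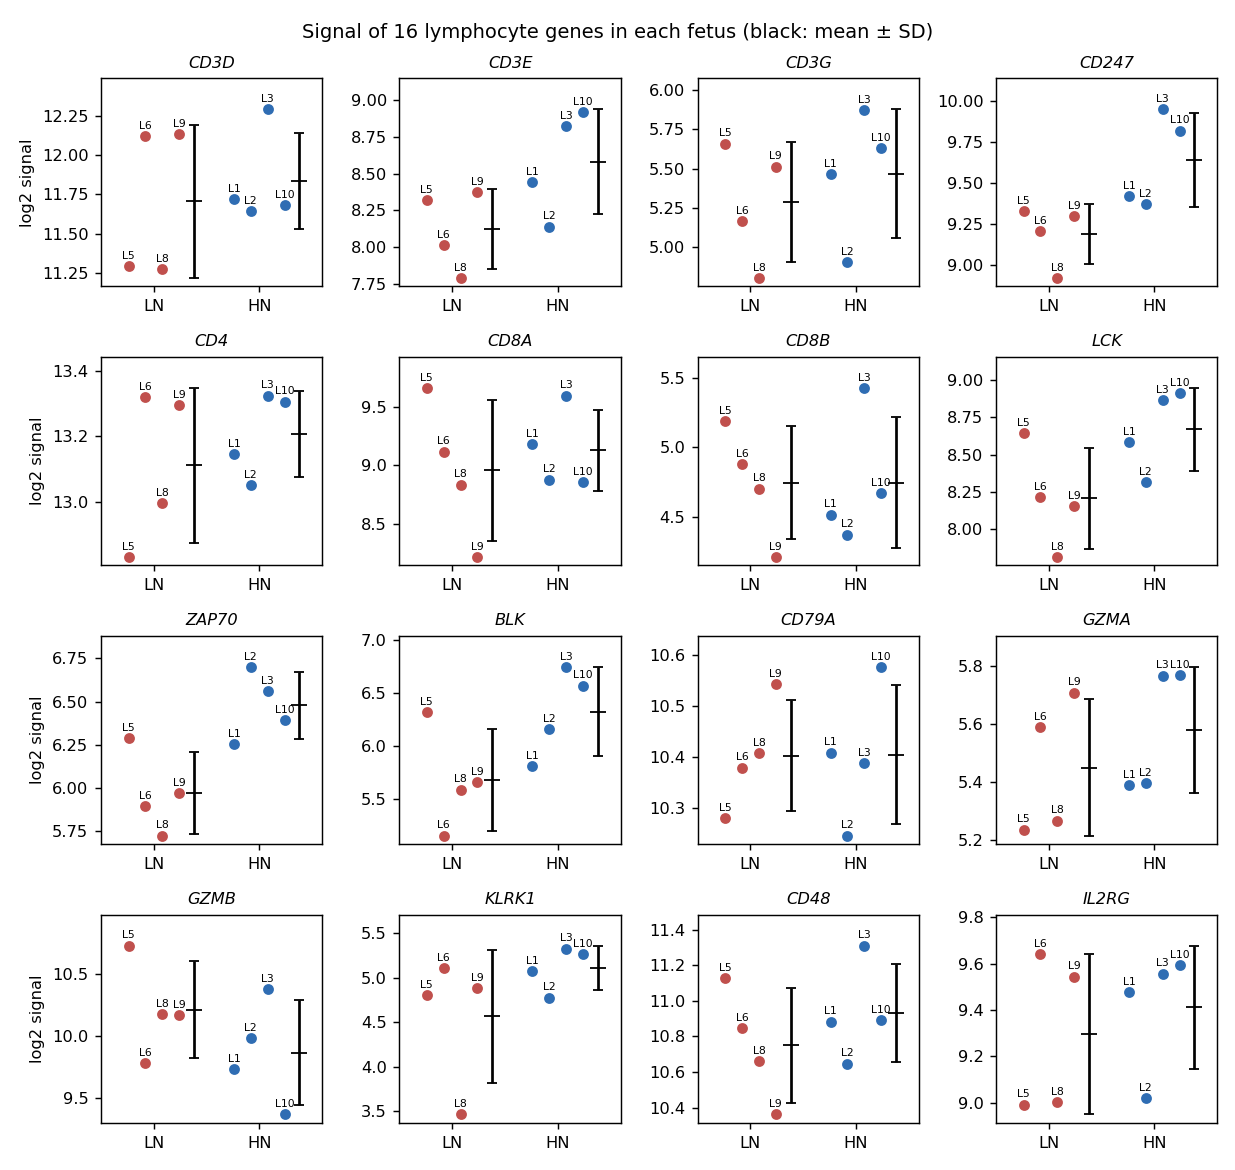
Log2 signal in each fetus (vertical axis) for the 16 members whose values are given by fetus, 1 panel per gene with its own vertical scale. Points are fetuses, and black marks with bars are group means ± SD. For CD247, all 4 LN points lie below all 4 HN points, and in every other panel the groups overlap.

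The remaining T cell members overlapped between the groups. LEF1 and TCF7, transcription factors of developing and naive T cells, had differences of -0.36 (95% interval -0.83 to 0.11) and -0.24 (95% interval -0.68 to 0.20). LEF1 gave -0.17 without LN L6 and -0.094 with normexp background correction, and TCF7 gave -0.13 without HN L1. Both genes also act in Wnt signalling in other cells. CD2, an adhesion receptor of T and NK cells, differed by -0.14, by -0.056 without LN L8 and by -0.26 with 75th percentile scaling. CD5, a surface inhibitor of receptor signalling, differed by -0.13, near the background of the arrays.
Over the 14 detected T cell members, 13 were lower in LN, with a median difference of -0.18 and a range from -0.51 to 0.075. The costimulatory receptors CD27 and CD28 and the interleukin 7 receptor chain IL7R had no detected probe. Their probes were well above background on 0 arrays for CD27, on 1 HN array for CD28, and on 2 LN arrays and 1 HN array for IL7R.

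The detected B cell members were BLK and CD79A, with a lower mean of BLK in LN and nearly equal means of CD79A. BLK (NM_001075968), a SRC family kinase of the B cell receptor, was at 6.32, 5.15, 5.58 and 5.65 in LN L5, L6, L8 and L9 and at 5.81, 6.16, 6.75 and 6.57 in HN L1, L2, L3 and L10. LN L5 lay inside the HN range and the other LN fetuses lay below it. The difference was -0.64 (95% interval -1.28 to -0.01, exact permutation p = 0.114, adjusted p = 0.785 by limma), the largest in size among all detected members. With normexp background correction it was -0.31, smaller in size than that of LCK at -0.42. CD79A (NM_174266), the signalling chain of the B cell receptor, was at 10.28, 10.38, 10.41 and 10.54 in LN and at 10.41, 10.25, 10.39 and 10.58 in HN. Its fetuses lay close together, with SDs of 0.11 in LN and 0.14 in HN. The difference was -0.0023 (95% interval -0.27 to 0.27, exact permutation p = 0.943), and with the arrays scaled to their 75th percentile it changed sign, to 0.011. MS4A1, which encodes the B cell surface protein CD20, had no detected probe, with 1 of its probes well above background on 1 LN and 1 HN array and the other on 0 arrays. Because only BLK and CD79A could be compared, no common B cell pattern is given.

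Among cytotoxic and NK genes, 4 of 5 were lower in LN and 1 was higher, with a median difference of -0.13. KLRK1 (NM_001075139) encodes the activating receptor NKG2D of NK and cytotoxic T cells. It was at 4.81, 5.11, 3.46 and 4.89 in LN (L5, L6, L8, L9) and at 5.08, 4.78, 5.33 and 5.27 in HN (L1, L2, L3, L10). LN L8 was far below the other fetuses. The difference was -0.55 (95% interval -1.32 to 0.22, exact permutation p = 0.20), and without LN L8 it was -0.18.

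The 2 granzymes pointed in opposite directions. GZMB (NM_174296), a serine protease of killer cell granules, was at 10.72, 9.78, 10.17 and 10.16 in LN and at 9.73, 9.98, 10.38 and 9.37 in HN. The groups overlapped, with the highest value in LN L5 and the lowest in HN L10. Its difference was 0.35 (95% interval -0.23 to 0.93, exact permutation p = 0.286), and its other probe gave 0.41. GZMA (NM_001099095) was at 5.24, 5.59, 5.27 and 5.71 in LN and at 5.39, 5.40, 5.77 and 5.77 in HN, a difference of -0.13 (95% interval -0.50 to 0.24). Without LN L5 it was -0.058, and with 75th percentile scaling -0.29. PRF1, the pore former perforin, differed by -0.056, and NKG7, a granule membrane protein, by -0.13. None of these genes separated the groups.

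CD48, a ligand of the SLAM family receptor 2B4 found on many blood cells, and IL2RG, the receptor chain shared by interleukin 2 and related cytokines, were low in the same HN fetus. CD48 (NM_001046002) was at 11.13, 10.85, 10.66 and 10.36 in LN and at 10.88, 10.65, 11.31 and 10.89 in HN, and it differed by -0.18 (95% interval -0.64 to 0.27). IL2RG (NM_174359) was at 8.99, 9.64, 9.0 and 9.54 in LN and at 9.48, 9.02, 9.56 and 9.59 in HN, and it differed by -0.12 (95% interval -0.58 to 0.35). HN L2 was the lowest HN fetus for both, and the groups overlapped.

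Probes of a gene mostly pointed the same way. Of the 12 members with more than 1 detected probe, 10 had all of their detected probes on the same side of 0, and CD3G and LAT had probes on both sides. The size of the difference varied more than its sign. The second probe of CD79A, for example, differed by -0.28 and was well above background on 2 LN and 4 HN arrays.

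**Figure D3:**
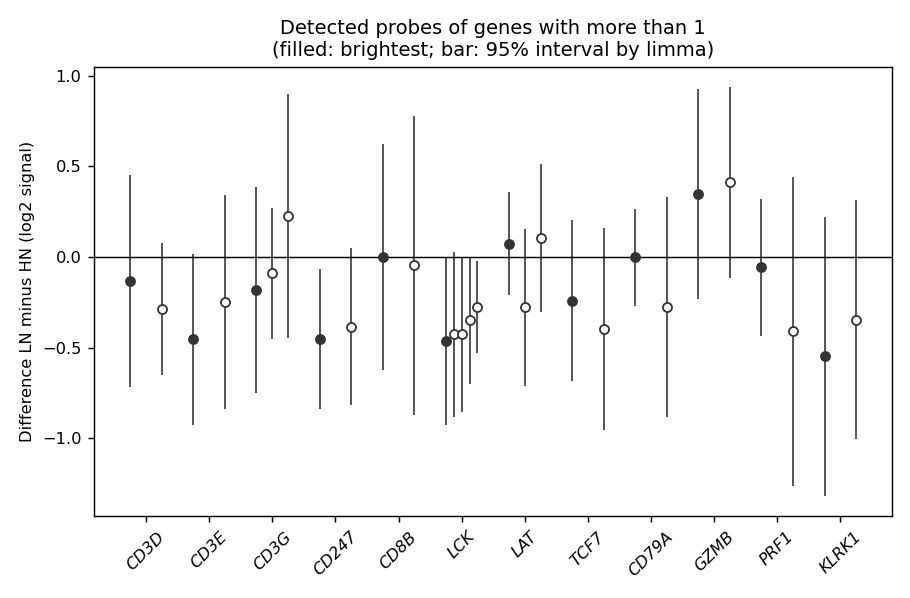
Difference in mean log2 signal, LN minus HN, of each detected probe (vertical axis) for the 12 members with more than 1 detected probe. Filled points are the brightest probes, which represent the genes elsewhere, and open points are the other probes. Bars are 95% limma intervals. All 5 LCK probes lie between -0.46 and -0.27, and CD3G and LAT have probes on both sides of 0.

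Within each group the fetuses spread over a wider range than the difference between the group means. The level of a list in a fetus was taken as the mean, over detected members, of that fetus's log2 signal minus the gene's mean over all 8 fetuses. For the T cell members it was 0.065, -0.16, -0.31 and -0.060 in LN L5, L6, L8 and L9 and 0.030, -0.14, 0.37 and 0.21 in HN L1, L2, L3 and L10. HN L2 lay among the LN fetuses, and LN L5 lay above HN L1. HN L3 was the highest fetus for 6 of 14 T cell members and HN L10 for 5, whereas LN L8 was the lowest for 7. The median T cell difference was -0.096 without HN L3, against -0.31 without HN L2.

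**Figure D4:**
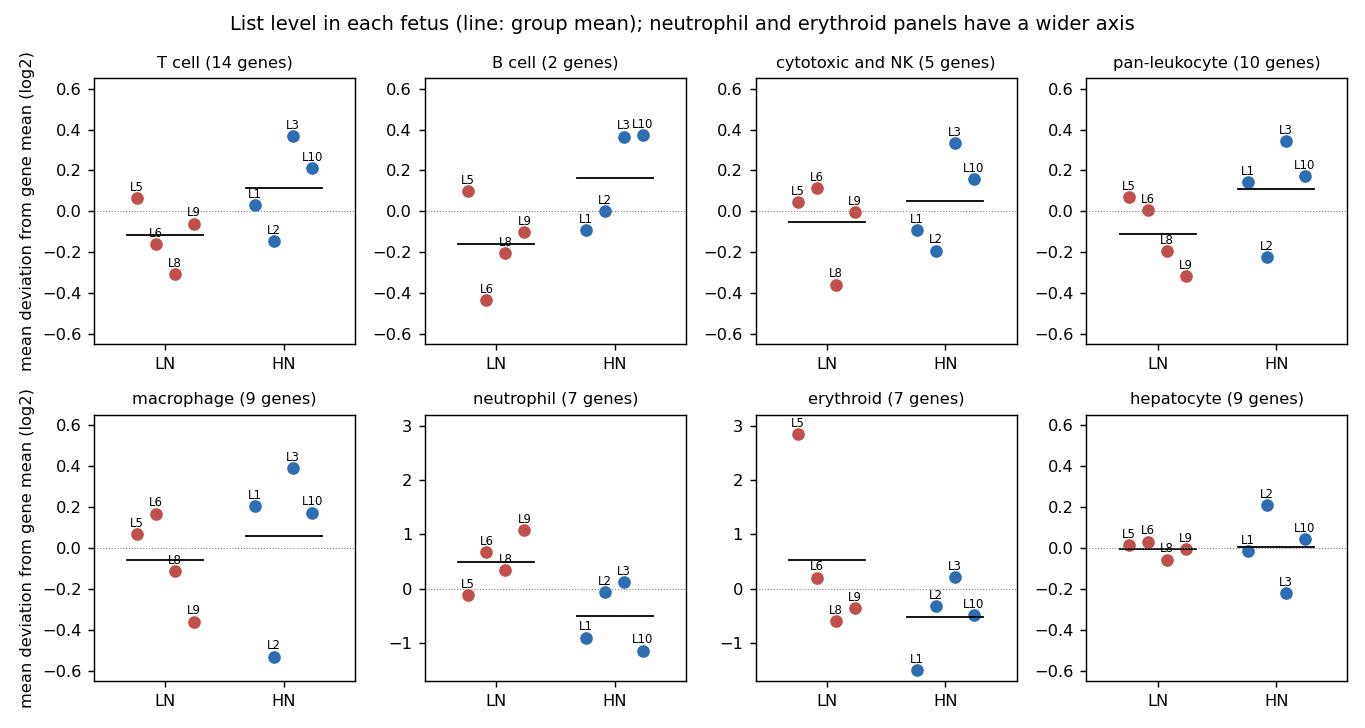
List level in each fetus (vertical axis, mean log2 deviation from the gene means) for the T cell, B cell, and cytotoxic and NK members. Pan-leukocyte, macrophage, neutrophil, erythroid and hepatocyte markers are shown beside them. The neutrophil and erythroid panels have a wider axis. Points are the 4 LN and 4 HN fetuses. The T cell levels run from -0.31 to 0.065 in LN and from -0.14 to 0.37 in HN, and the groups overlap in every list shown.

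Other genes of lymphocyte biology were examined beside the members. The 119 genes of these lists had 93 matches and 77 with a detected probe, of which 46 were lower in LN, with a median difference of -0.12. At an unadjusted limma p of at most 0.05, 6 were lower and 1 was higher, and 0 passed the adjusted p. The background of this call was 6.05% of detected genes in either direction and 2.75% lower in LN. Groups without overlap were found for 2 of the 77, against 4.14% of all detected genes. Among 15 further genes of T cell receptor signalling, 10 were lower and 0 reached that unadjusted p. Among 12 further T cell identity and costimulation genes, 5 were lower and 7 higher. CD7, an early T and NK cell surface protein, differed by -0.57, whereas S1PR1, the receptor that guides lymphocytes out of tissues and is also made by endothelial cells, differed by 0.37, or by 0.21 as the mean over its detected probes, which no longer reached that p.

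Among 13 further B cell genes, 10 were lower in LN. The median difference of these genes was -0.16, and 0 had groups without overlap. Of the plasma cell genes, 3 of 6 were lower, and MZB1, a chaperone of antibody assembly, differed by -0.44. Of 3 detected genes of early lymphoid cells, 2 were lower, with a median difference of -0.032. The largest was that of IKZF1, a transcription factor of lymphoid development, at -0.66, or -0.15 with normexp background correction.

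Of 12 further cytotoxic and NK genes, 7 were lower in LN. KLRB1, the NK cell receptor CD161 (NM_001206636), was at 6.28, 6.58, 6.55 and 6.26 in LN and at 7.13, 6.63, 7.26 and 6.89 in HN. All LN fetuses lay below all HN fetuses, and the difference was -0.56 (exact permutation p = 0.0286, adjusted p = 0.760 by limma). Of 8 genes of the common gamma chain cytokines, 5 were lower, and JAK1, a kinase of many cytokine receptors, had all LN fetuses above all HN fetuses with a difference of only 0.17, or 0.033 as the mean over its detected probes. Of 8 homing genes, 4 were lower, and CCL21, a chemokine that attracts T cells to lymphoid tissue, differed by -1.08 with overlapping groups.

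Markers of other blood cells are given beside these values, and their part in them was not tested. None of the pan-leukocyte, macrophage and erythroid genes reached the unadjusted limma p of 0.05, and 0 had groups without overlap. Pan-leukocyte genes, which lymphocytes share with other white cells, were lower in LN for 9 of 10, with a median difference of -0.25. Their list level ran from -0.32 to 0.070 in LN and from -0.22 to 0.34 in HN, and HN L3 was again the highest fetus and HN L2 the lowest of its group. Macrophage markers were lower for 8 of 9, with a median difference of -0.14 and levels from -0.36 to 0.17 in LN and from -0.53 to 0.39 in HN. Neutrophil granule genes went the other way, with 6 of 7 higher in LN, a median difference of 0.91 and levels from -0.12 to 1.08 in LN and from -1.14 to 0.12 in HN. At the unadjusted limma p of 0.05, 4 of these 7 were called, all higher in LN, and ELANE, MPO and CATHL4 did not overlap between the groups. Over all detected genes, 6.05% were called at that p and 4.14% had groups without overlap. Erythroid genes were higher in LN for 7 of 7, with a median difference of 1.1 and levels from -0.59 to 2.84 in LN and from -1.50 to 0.21 in HN. LN L5, the highest LN fetus for the T cell members, was also the highest of all fetuses for the erythroid list. The detected pan-leukocyte, macrophage and neutrophil genes were well above background on all 8 arrays, and 3 further matched erythroid genes had no detected probe.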

How the data were processed

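RNA from the livers of 4 LN and 4 HN fetuses was measured on 1-colour bovine arrays from Agilent. The intensity that the authors deposited for each spot was background-subtracted by Feature Extraction (version 11.0.1.1 in the submitters' processing notes), without normalization between arrays. A second file deposited by the authors held log2 values of 31068 probes. Each of these passed the scanner's background test on all 8 arrays, and 31030 of the probes lay within 0.001 of a quantile normalization of all their log2 intensities.

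Here control spots and 16 probes marked as outliers were removed, spots of a probe were averaged, and log2 intensities of 43637 probes were quantile normalized. Genes came from RefSeq accessions. The groups were compared over 33439 detected probes with limma (version 3.58.1, R version 4.3.3, lmFit followed by eBayes, 2-sided, Benjamini-Hochberg), and with exact permutation tests over single genes. The functions were tested on simulated data. The number of arrays limits the precision.

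Members and gene lists were chosen with earlier results of these data known. Values by fetus are given for members without overlap or with an unadjusted p of at most 0.05, for the 3 largest differences of each list, and for CD3, CD79, CD8 and CD4 genes. From other lists, up to 4 genes without overlap or at that p are named. Among the markers of other cells, those without overlap are named. Some genes of these lists enter the counts, but their values are not reported here. Alternatives were 75th percentile scaling, normexp (offset 50), the authors' table, other filters, limma with trend and robust settings, Student's test, other probe rules, array position as a block and each fetus left out. The second brightest probe was chosen as an alternative after seeing the data. The array design used another genome build than the gene table, so no coordinates are given, and no probe or gene sequences were used here.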

Additional observations from a re-analysis of the deposited data

Results flagged for a closer look

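In 102 groups of 4 values, taken over the 31 genes given by name and 20 lists, 2 values stood far from the other fetuses of their group by Dixon's criterion, which chance alone meets in about 1 of 20 groups. For CD3D, HN fetus L3 had a log2 signal of 12.30, and the next highest HN fetus 11.72. For the list of further T cell identity and costimulation genes, LN fetus L8 had a list level of -0.38, and the next lowest LN fetus 0.10.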

How the results depend on the processing

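Limits come first from 4 fetuses per group and from slides that coincide with the groups. No paired analysis was possible because the LN and HN fetuses share no numbers. Array position on the slide, which holds 1 LN and 1 HN array at each of 4 positions, was used as a block, which pairs arrays by place and not fetuses. Without HN L10, 17 of 23 members were lower in LN. Every alternative called 0 members at the adjusted p, and the T cell median stayed below 0 in each, from -0.31 to -0.096 with each fetus left out.

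The number of members at an unadjusted p of at most 0.05 was 6 with 75th percentile scaling and 1 with array position as a block, and 1 to 4 with each fetus left out (1 without LN L8, HN L3 or HN L10). For T cell members, it was 5 with 75th percentile scaling, 1 with array position as a block and 1 with the second brightest probe, against 2, and 1 to 4 with each fetus left out (1 without LN L8, HN L3 or HN L10, and 4 without HN L2). For B cell members, it was 0 with normexp, no filter, Student's test or array position as a block, against 1, and 0 to 1 with each fetus left out (0 without LN L6, LN L8, LN L9, HN L2, HN L3 or HN L10). Members without overlap numbered 2 with 75th percentile scaling, 0 with normexp, 0 with the mean over probes and 0 with the second brightest probe, against 1, and 1 to 4 with each fetus left out (4 without LN L5, 3 without HN L2, 2 without HN L1 or HN L10). Leaving out a fetus can keep or raise this count for any set of genes but cannot lower it. The share over all detected genes in these settings is not given here. With each fetus left out, probes at the adjusted p numbered 0 to 1 (1 without LN L6). Probes at the unadjusted p numbered 2813 with 75th percentile scaling and 2963 with no filter, against 2113. With each fetus left out, they numbered 1343 to 2639 (1343 without HN L10).

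CD79A reversed to 0.011 with 75th percentile scaling, CD8B to 0.040 with normexp and 0.0099 with the authors' table, and LAT to -0.033 with the mean over probes and -0.28 with the second brightest probe. With each fetus left out, differences ran from -0.27 to 0.022 for CD3D, -0.33 to 0.12 for CD5, -0.40 to 0.077 for CD8A, -0.15 to 0.23 for CD8B, -0.055 to 0.055 for CD79A, -0.17 to 0.018 for PRF1 and -0.31 to 0.040 for NKG7, and the median of the cytotoxic and NK members turned to 0.0038 without HN L10. With normexp, ZAP70 gave -0.28, BLK -0.31, KLRK1 -0.13, KLRB1 -0.35 and IKZF1 -0.15. With each fetus left out, CD3G ran from -0.37 to -0.022, CD4 from -0.17 to -0.0033, GZMB from 0.18 to 0.52, CD48 from -0.31 to -0.054 and IL2RG from -0.25 to -0.014. The cause of these changes was not tested.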
